A study of Mus musculus with 6 samples.

Results

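The microRNA processing and silencing machinery was followed through 10 genes that carry a microRNA from its primary transcript to the repressed mRNA: *Drosha*, *Dgcr8*, *Xpo5*, *Dicer1*, *Tarbp2*, *Ago1*, *Ago2*, *Ago3*, *Ago4* and *Tnrc6a*. They were picked by name, as the rows of the mRNA count table whose Ensembl identifier maps to these symbols, and the rule uses no measured value. All 10 were found among the 55414 genes of the table, all 10 were among the 16353 genes with enough counts to be tested, and each was at 1 CPM (counts per 1000000 of a library, TMM-scaled) or more in all 6 libraries.

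A primary microRNA transcript is cut in the nucleus by the Microprocessor, in which DROSHA is the RNase and DGCR8 the RNA-binding partner. XPO5 (Exportin-5) carries the hairpin to the cytoplasm, where DICER1 with its partner TARBP2 cuts it to a duplex. One strand is loaded into an Argonaute protein (AGO1 to AGO4, of which AGO2 has the well-known slicer activity), and TNRC6 proteins, also called GW182, link Argonaute to the deadenylases and decapping factors that silence the target mRNA. Loss of *Dicer1* or *Dgcr8* removes most or all canonical microRNAs from a cell, and early pancreatic progenitors are among the cells in which *Dicer1* is known to be needed.

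The libraries compared wild-type (WT) with *mir-302* knockout (KO) embryos at E10.5, 3 libraries each. Both genotypes carried the *Pdx1-Cre* transgene and the tdTomato reporter, so that Cre-labeled cells could be sorted from the trunk, and their genotypes were Pdx1-Cre+, Tdtomato+, miR-302WT and Pdx1-Cre+, Tdtomato+, miR-302KO. The *mir-302* deletion is a germline one, present in every cell of a KO embryo, and Cre served only to label cells of the *Pdx1* lineage. The sources used here do not give the number of embryos behind a library, so the p-values measure the spread between these libraries, which may be partly technical.

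Total counts per library ran from 17352498 to 26634523. Of 13 markers of pancreatic progenitors, 12 were at 1 CPM or more in every library, and their summed level was 1060 to 1205 CPM in WT and 1155 to 1357 CPM in KO. Summed markers of other cell types varied between libraries of 1 genotype, and their ranges overlapped between genotypes. Summed endocrine markers ran from 1093 to 5085 CPM in WT and from 1950 to 5626 CPM in KO. Liver markers ran from 662 to 1774.5 CPM in WT and from 566 to 1831 CPM in KO. Gut endoderm markers were at 2835 to 3150 CPM in WT and 3063 to 3378 CPM in KO. Summed globin and other blood genes were at 15954 CPM in WT replicate 3, 6391 CPM in KO replicate 1, 337 CPM in KO replicate 3 and 0.969 to 3.18 CPM in the others. Summed mesenchyme markers were lowest in KO replicate 2, at 47.5 CPM, and ran from 185 to 1062 CPM elsewhere. The genes of the deleted cluster cannot check the genotype labels here. No read was counted in any library at *Mir302a*, *Mir302b*, *Mir302c* or *Mir367*, and *Mir302d* had 2 counts in KO replicate 3 alone, under a floor of 3 counts.

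The miR-302b-3p and miR-302d-3p entries of the deleted cluster share a seed, the stretch that pairs with target mRNAs. miR-367, from the same cluster, has another seed, for which no search was made. The mature 3p sequences that RefSeq lists on mouse chromosome 3 (GRCm38.p6, plus strand) are given here from 5′ to 3′ with bases 2 to 8 in capitals. Matches to those of miR-302b-3p and miR-302d-3p are looked for in the machinery's own mRNAs. mmu-miR-302b-3p lies at chr3:127545275-127545297, mmu-miR-302c-3p at chr3:127545406-127545427 and mmu-miR-302d-3p at chr3:127545665-127545687, and mmu-miR-302a-3p is named only.
mmu-miR-302b-3p: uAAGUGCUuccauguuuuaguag
mmu-miR-302c-3p: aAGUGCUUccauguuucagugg
mmu-miR-302d-3p: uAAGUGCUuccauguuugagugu
The miR-302c-3p entry starts 1 base later than the other entries, so its bases 2 to 8 are shifted by 1 position along the same run of letters. Matches to the shifted bases of that entry were not searched for separately.

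Matches to the seed of miR-302b-3p and miR-302d-3p were searched in the 3′ untranslated region (3′UTR) of each gene. The annotated 3′UTR of the longest coding transcript was used (GENCODE M21, GRCm38). The motifs, written as DNA, were AGCACTT (pairing with bases 2 to 8), GCACTTA (pairing with bases 2 to 7, followed by A) and AGCACTTA (both at once, counted as 1 site). Only the strand of the transcript was searched, and an AGCACTTA was not counted again under its shorter motifs. Of the 10 genes, 3 held a match, 30% against 20.3% of the 13733 tested genes with a 3′UTR. These shares were not matched for 3′UTR length, so they do not show an excess of matches. *Ago3* held 3 matches, at bases 3776, 7156 and 9952 of its 12742-base 3′UTR, *Ago1* held 2, at bases 679 and 4193 of 4491, and *Dicer1* held 1, at base 1422 of 3851. They are printed with the matched letters in capitals to show which of the machinery's mRNAs carry them.
Ago3, base 3776: ggtgtgAGCACTTggagcc
Ago3, base 7156: aattgcAGCACTTAagaggc
Ago3, base 9952: gttaagAGCACTTAttgtgc
Ago1, base 679: actatgGCACTTAgctctg
Ago1, base 4193: gatgttGCACTTAgcagcc
Dicer1, base 1422: aatgctGCACTTAggttca
A match of letters is a description of these windows and does not show that a site is used. The 3 genes that hold one were each lower in KO on average, by amounts that did not pass the test. Without WT replicate 2 the log2 fold change of *Dicer1* was 0.04.

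No gene of the machinery differed between KO and WT at an adjusted p under 0.05 in the quasi-likelihood test of edgeR, Benjamini-Hochberg adjusted over all 16353 genes, which called 0% of them. Without WT replicate 2 it called 217 genes, still 0 of the 10. At an unadjusted p under 0.05, 1 of the 10 was higher in KO (*Ago2*) and 0 were lower, against 6.42% and 3.97% of all tested genes. DESeq2 called 0 of the 10 at an adjusted p under 0.05, against 4.22% of its 14353 genes called higher and 0.648% called lower. On the edgeR estimates, 2 of the 10 were higher and 8 were lower in KO. Their median log2 fold change was -0.15, and that of all tested genes was -0.02, with 7449 higher and 8904 lower. The largest differences in either direction were both in the Argonaute family, as the plot of CPM by library shows.

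**Figure D1:**
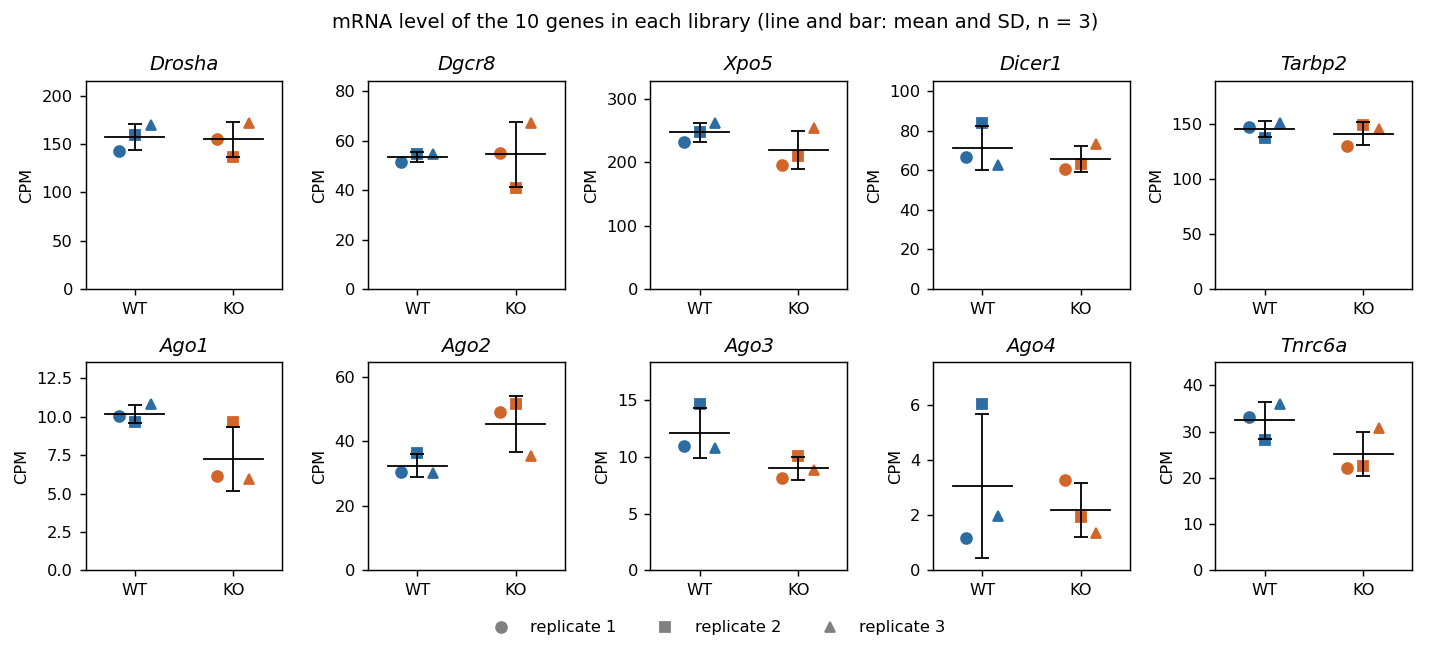
mRNA level in CPM (vertical axes, each from 0) of each of the 10 genes in WT (blue) and KO (orange) libraries, with the marker shape giving the replicate number and the line and bar the mean and SD of 3 libraries. KO points lie below all WT points for *Ago3* alone, and for *Ago2* the KO mean is above the WT mean while KO replicate 3 at 35.4 CPM lies just under WT replicate 2 at 36.5 CPM.

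*Drosha*, the nuclear RNase, stood at 143, 159 and 170 CPM in WT and at 155, 137 and 172 CPM in KO replicates 1 to 3. The KO values spanned almost the same range as the WT values, and the log2 fold change of KO over WT was -0.02 with a 95% interval from -0.27 to 0.23 (edgeR unadjusted p = 0.851, adjusted p = 0.975). *Dgcr8*, its RNA-binding partner, was at 51.2, 54.5 and 54.6 CPM in WT and at 55.1, 41.0 and 67.4 CPM in KO. The WT libraries were tightly grouped and the KO libraries spread to both sides of them, giving a log2 fold change of 0.03 with an interval from -0.39 to 0.44 (edgeR unadjusted p = 0.880, adjusted p = 0.979).

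The balance of these Microprocessor subunits was taken as the log2 ratio of *Drosha* to *Dgcr8* in CPM per kb of transcript. It was 1.40, 1.46 and 1.55 in WT and 1.41, 1.66 and 1.27 in KO, so that the KO libraries held both the highest and the lowest ratio. The means were 1.47 ± 0.079 and 1.45 ± 0.196 (SD, n = 3), and a two-sided exact permutation test over the libraries gave p = 0.9, or 0.9 after adjustment over the 3 composition values tested. With 3 libraries against 3 this exact test cannot go below p = 0.1.

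*Xpo5*, the exporter of the hairpin, had the highest CPM of the 10 genes, at 233, 248 and 263 CPM in WT and 195, 210 and 253 CPM in KO. KO replicates 1 and 2 were under every WT library and KO replicate 3 lay inside the WT range. The log2 fold change was -0.18 with an interval from -0.44 to 0.09 (edgeR unadjusted p = 0.159, adjusted p = 0.685). It was -0.09 without KO replicate 1, -0.10 without WT replicate 3 and -0.26 without KO replicate 3, where the unadjusted edgeR p was 0.0251.

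*Dicer1* was at 66.7, 84.0 and 62.7 CPM in WT and at 60.7, 63.2 and 73.2 CPM in KO. The genotypes overlapped, with WT replicate 2 the highest of the 6 libraries. The log2 fold change of -0.12 had an interval from -0.44 to 0.21 (edgeR unadjusted p = 0.426, adjusted p = 0.870). *Tarbp2*, the double-stranded RNA-binding partner of DICER1, was the steadiest, at 147, 138 and 151 CPM in WT and 130, 149 and 146 CPM in KO. Its log2 fold change was -0.04 and its interval, from -0.23 to 0.15, was the narrowest of the 10 (edgeR unadjusted p = 0.626, adjusted p = 0.932). *Prkra*, which encodes PACT, the other such partner of DICER1, stood beside it at a log2 fold change of -0.09 (edgeR adjusted p = 0.831).

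In the Argonaute family *Ago2* was higher in KO and *Ago1* and *Ago3* were lower, none of them by an adjusted test. For *Ago4* the sign changed without WT replicate 2. *Ago2* stood at 30.6, 36.5 and 30.3 CPM in WT and 49.1, 51.5 and 35.4 CPM in KO. KO replicates 1 and 2 were above every WT library, while KO replicate 3 overlapped WT. Mean levels were 32.5 ± 3.49 and 45.4 ± 8.68 CPM (SD, n = 3), a fold of 1.40 on the edgeR estimate and a log2 fold change of 0.48 with an interval from 0.08 to 0.89. This was the only one of the 10 intervals to exclude 0 (edgeR unadjusted p = 0.0256, adjusted p = 0.363, DESeq2 adjusted p = 0.114). Leaving out 1 library at a time gave log2 fold changes of 0.40 to 0.67, and the unadjusted p was no longer under 0.05 without WT replicate 1, WT replicate 3, KO replicate 1 or KO replicate 2.

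*Ago1* was at 10.04, 9.66 and 10.8 CPM in WT and 6.15, 9.69 and 5.93 CPM in KO. KO replicates 1 and 3 were below all WT libraries, and KO replicate 2 was level with WT replicate 2. Without KO replicate 2 the unadjusted edgeR p of *Ago1* was under 0.05, at a log2 fold change of -0.73. Its log2 fold change was -0.49 with an interval from -1.04 to 0.06 (edgeR unadjusted p = 0.0732, adjusted p = 0.542). *Ago3* was at 10.9, 14.6 and 10.8 CPM in WT and 8.09, 10.03 and 8.82 CPM in KO, and was the 1 gene of the 10 whose groups did not overlap, with every KO library below every WT library. Among all tested genes 7.99% had KO wholly below WT and 8.36% had it wholly above, so 1 below and 0 above of 10 is close to that background. The log2 fold change of *Ago3* was -0.43 with an interval from -0.89 to 0.02 (edgeR unadjusted p = 0.0589, adjusted p = 0.502). Without WT replicate 2, its highest library, the estimate was -0.26 (edgeR unadjusted p = 0.248).

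*Ago4* was scarce, with 25, 108 and 41 counts in WT and 88, 34 and 25 counts in KO, or 1.18, 6.03 and 1.99 CPM against 3.28, 1.94 and 1.36 CPM. WT replicate 2 alone lifted the WT mean, and its log2 fold change of -0.47 had the widest interval of the 10, from -1.96 to 1.02 (edgeR unadjusted p = 0.485, adjusted p = 0.894). Without WT replicate 2 the estimate was 0.50, so that no direction can be given for *Ago4*. *Ago3*, *Ago1* and *Ago4* follow each other in that order, with no other protein-coding gene between them, on mouse chromosome 4 (RefSeq gene order), whereas *Ago2* lies elsewhere.

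The shares of *Ago2*, *Ago1* and *Ago3* in Argonaute mRNA did not overlap between the genotypes, and that of *Ago4* did. The shares of a library are parts of 1 whole, so a larger *Ago2* share lowers the others and these are not separate results. In CPM per kb of transcript, *Ago2* made up 49.4%, 45.2% and 46.8% of the summed *Ago1* to *Ago4* mRNA in WT and 65.5%, 62.1% and 61.7% in KO. The lowest KO library was thus 12.3 percentage points above the highest WT library. The means were 47.2% ± 2.10 and 63.1% ± 2.12 (SD, n = 3), a difference of 15.95 percentage points. The two-sided exact permutation test gave p = 0.1, the smallest value that 3 against 3 allows, and 0.3 after adjustment over the 3 composition values, so the separation does not pass a threshold of 0.05. The sum itself differed by less than its SD, at 5.01 ± 0.731 CPM per kb in WT and 5.20 ± 0.946 in KO.

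The share held by *Ago1* was 28.6% ± 4.97 in WT and 19.2% ± 3.34 in KO, that of *Ago3* 15.5% ± 0.675 and 11.3% ± 2.08, and that of *Ago4* 8.77% ± 6.21 and 6.39% ± 2.47 (SD, n = 3 each). *Ago3* had no KO library at or above a WT library in this measure, with 14.7% as its lowest WT and 13.6% as its highest KO share. For *Ago1* the gap was narrow, with 22.9% as its lowest WT and 22.3% as its highest KO share. Shares depend on the length each gene is divided by: with coding length in place of transcript length, *Ago2* held 56.2% ± 1.69 in WT and 70.9% ± 2.53 in KO (SD, n = 3), a difference of 14.7 points. Leaving out any 1 library left a difference of 14.7 to 17.1 points by transcript length. It was 14.6 points without WT replicate 3 and KO replicate 1, the libraries with the most blood mRNA, whose own *Ago2* shares were 46.8% and 65.5%. In sorted bulk cells, more *Ago2* mRNA per cell and more cells that are rich in it cannot be told apart.

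**Figure D2:**
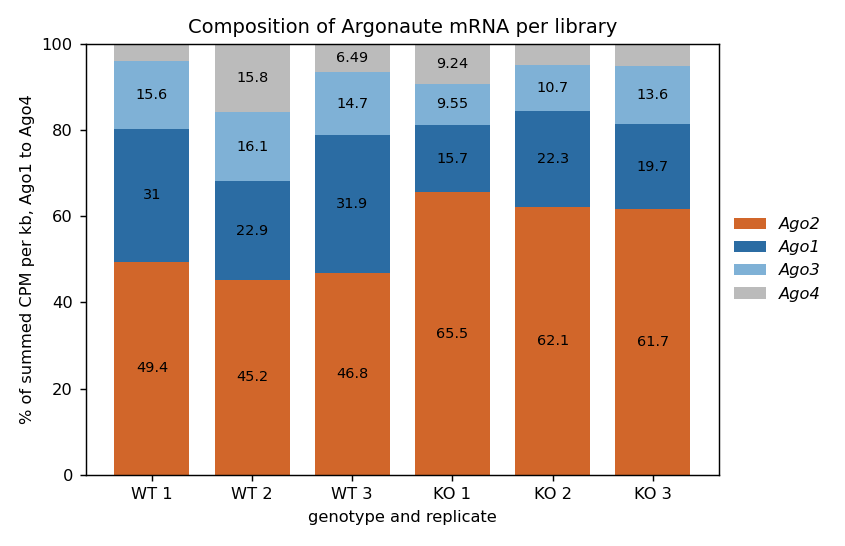
Share of each Argonaute gene (colors) in the summed CPM per kb of *Ago1* to *Ago4*, in percent from 0 to 100, for each of the 6 libraries. *Ago2* holds 45.2% to 49.4% in WT and 61.7% to 65.5% in KO, the shares of *Ago1* and *Ago3* are smaller in each KO library than in any WT library, and those of *Ago4* overlap.

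The GC content of the transcripts is given beside the *Ago2* result. A run of 200 bases that is 75% GC or more occurred in 20.2% of tested genes with a transcript, and their median log2 fold change was 0.14 against -0.05 for the others. Of the 10 genes, *Ago2* (78.5% GC in its richest stretch), *Dicer1* (78.5%) and *Ago4* (79.0%) held such a stretch. Without offsets their log2 fold changes were 0.48, -0.12 and -0.47, so they did not share a direction. When offsets for this trend were put into the edgeR fit, *Ago2* came to a log2 fold change of 0.28 (unadjusted p = 0.119) and *Dicer1* to -0.31 (unadjusted p = 0.0312), and *Ago2* no longer passed the unadjusted threshold. With the offsets *Ago1* was at -0.48 and *Ago3* at -0.40, and the part of GC content in the *Ago2* difference was not tested beyond this.

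*Tnrc6a*, which encodes the GW182 protein that Argonautes bind, was at 33.2, 28.1 and 35.9 CPM in WT and 22.2, 22.6 and 30.7 CPM in KO. KO replicates 1 and 2 were below all WT libraries and KO replicate 3 lay within their range. The log2 fold change was -0.37 with an interval from -0.78 to 0.05 (edgeR unadjusted p = 0.0767, adjusted p = 0.552). With 1 library left out it ranged from -0.50 (without KO replicate 3, edgeR unadjusted p = 0.0196) to -0.25 (without WT replicate 3). Its paralogs were also lower on average. *Tnrc6b* had a log2 fold change of -0.18 (edgeR unadjusted p = 0.288). *Tnrc6c*, at 11.7, 10.1 and 9.13 CPM in WT and 7.12, 7.98 and 7.46 CPM in KO, had every KO library below every WT library and a log2 fold change of -0.45 (edgeR unadjusted p = 0.0353, adjusted p = 0.416). *Tnrc6c* holds a run of 85.5% GC, and with GC offsets its log2 fold change was -0.85 (edgeR unadjusted p = 0.00375). Without offsets, the unadjusted edgeR p was under 0.05 with WT replicate 3 left out and at 0.0507 to 0.117 with any other library left out.

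The make-up of TNRC6 mRNA overlapped between the genotypes. *Tnrc6a* made up 53.5%, 46.8% and 53.2% of summed *Tnrc6a* to *Tnrc6c* CPM per kb in WT and 49.8%, 45.9% and 52.1% in KO, ranges that overlap. The means were 51.1% ± 3.77 and 49.3% ± 3.17 (SD, n = 3; two-sided exact permutation p = 0.5, adjusted over the 3 composition values 0.75). Per kb of transcript, the sum of the family was 7.73 ± 0.474 CPM in WT and 6.22 ± 0.900 in KO (SD, n = 3). Each KO library (5.45, 6.01 and 7.21) was below the lowest WT library (7.34). Per kb of coding length the groups overlapped, with KO replicate 3 at 15.03 CPM above WT replicate 1 at 14.95 CPM.

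**Figure D3:**
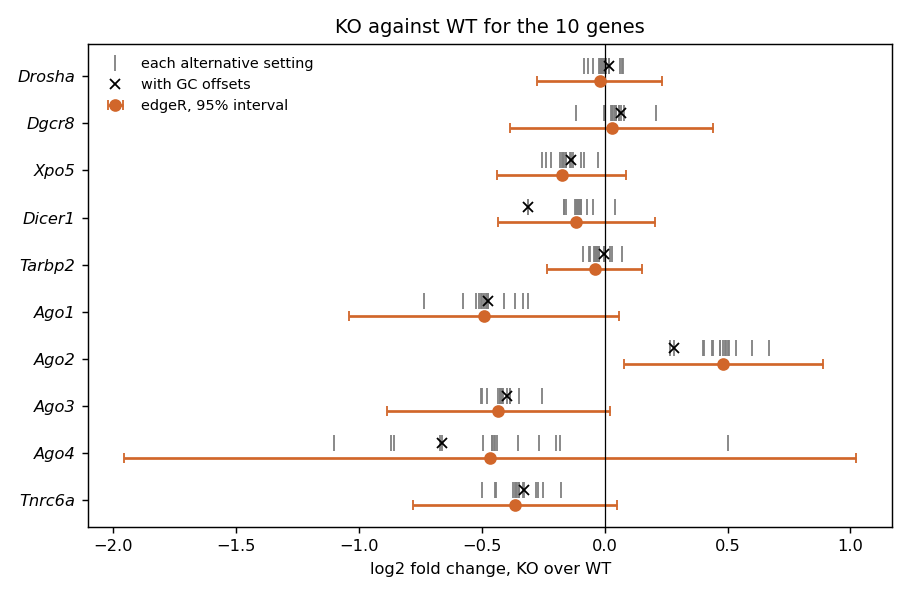
Log2 fold change of KO over WT (horizontal axis) for each of the 10 genes, with the edgeR estimate and its 95% interval (orange), the estimates under 16 alternative settings (grey ticks) and, among them, the estimate with GC offsets (cross). Only the interval of *Ago2* leaves out 0, at 0.08 to 0.89, and every alternative keeps *Ago2* above 0 and *Ago1*, *Ago3*, *Xpo5* and *Tnrc6a* below 0, whereas the others lie on both sides.

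Levels of different genes were compared per kb of transcript. In WT they ran from *Tarbp2* (95.6 CPM per kb), *Xpo5* (48.8), *Drosha* (34.4) and *Dgcr8* (12.4) to *Dicer1* (7.22), *Tnrc6a* (3.96), *Ago2* (2.35), *Ago1* (1.41), *Ago3* (0.777) and *Ago4* (0.469). The nuclear and export steps thus stood above the cytoplasmic effectors, apart from *Tarbp2*. Neighbors in this order did not overlap between WT libraries except *Ago3* and *Ago4*. In KO the order was the same but for 1 exchange, *Ago2* at 3.29 CPM per kb standing above *Tnrc6a* at 3.08, where the ranges overlapped (2.57 to 3.73 and 2.71 to 3.76). The annotated transcripts of *Ago2* (13800 bases) and *Ago3* (15595 bases) are long because of their 3′UTRs, and per coding length *Ago2* came above *Dicer1* and *Tnrc6a* in WT and *Ago3* came above *Ago1*. The lower ranks therefore depend on which transcript the cells use.

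**Figure D4:**
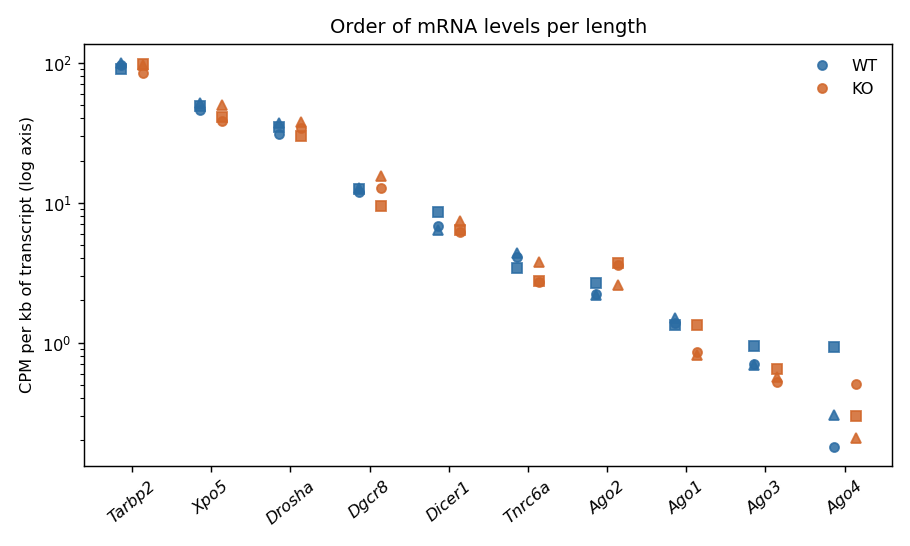
Level per kb of the longest annotated coding transcript (log axis) of the 10 genes in order of the WT mean, with each WT (blue) and KO (orange) library as a point whose shape gives the replicate. The order runs from *Tarbp2* at 95.6 CPM per kb to *Ago4* at 0.469 in WT, and KO differs in order only at *Ago2* and *Tnrc6a*.

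Over the 6 libraries, the genes whose log2 CPM followed *Ago2* most closely among those tested were *Hes1*, the Notch target and repressor of endocrine fate (Pearson r = 0.997, n = 6 libraries), *Vegfb*, a VEGF family growth factor (0.993), and *4930412C18Rik* (0.991). *Hes1* was at 7.68, 11.8 and 8.30 CPM in WT and 25.2, 26.6 and 11.3 CPM in KO, with KO replicate 3 again beside WT. These correlations are the highest of a search over all tested genes in 6 libraries of 2 genotypes and carry no test.

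The wider pathway was described from lists written by role, 64 genes in all and all of them tested. Among these 64, edgeR called 0 at an adjusted p under 0.05, and 23 were higher and 41 lower in KO, the median log2 fold change being -0.04. Without WT replicate 2 it called 1, *Cnot6*. At an unadjusted p under 0.05 edgeR had 8 higher and 8 lower, 12.5% each against 6.42% and 3.97% of all genes. The same shares of all genes are the background for the counts of each list below. DESeq2 called 3 higher and 2 lower, 4.69% and 3.13% against 4.22% and 0.648%. KO lay wholly above WT for 7 (10.9% against 8.36%) and wholly below for 9 (14.1% against 7.99%).

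Of 12 cofactors of nuclear processing, 3 were higher and 9 lower, with 1 and 2 at an unadjusted edgeR p under 0.05 (median log2 fold change -0.09). *Khsrp*, whose product binds the loop of let-7 and other precursors and promotes their processing, rose by DESeq2 from 14.5, 28.0 and 21.7 CPM in WT to 51.4, 39.5 and 32.6 CPM in KO. All KO libraries were above all WT libraries (log2 fold change 0.94, edgeR adjusted p = 0.230, DESeq2 adjusted p = 0.00907). *Ddx5*, which encodes the Microprocessor helicase p68, was called lower by DESeq2, at 372, 362 and 404 CPM in WT and 303, 311 and 296 CPM in KO (log2 fold change -0.32, edgeR adjusted p = 0.167, DESeq2 adjusted p = 0.0425). Its paralog *Ddx17* had a log2 fold change of -0.30, with overlapping groups (edgeR adjusted p = 0.656).

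Of 12 genes for Dicer partners and Argonaute loading, 4 were higher and 8 lower, with 0 and 2 at an unadjusted edgeR p under 0.05 (median -0.04). *Hsp90aa1*, a chaperone that holds Argonaute open for the duplex among its many clients, stood at 826, 752 and 778 CPM in WT and 606, 554 and 517 CPM in KO. KO was wholly below WT (log2 fold change -0.49, edgeR unadjusted p = 0.000885, adjusted p = 0.132, DESeq2 adjusted p = 0.00084).

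Of 29 silencing effectors that act with or after Argonaute, 12 were higher and 17 lower (median -0.06). At an unadjusted edgeR p under 0.05 there were 7 and 3 of them, against 6.42% and 3.97% of all tested genes. *Cnot6*, a catalytic deadenylase of the CCR4-NOT complex, stood at 56.1, 88.6 and 64.5 CPM in WT and 146, 144 and 119 CPM in KO, each KO library above each WT library. Its log2 fold change of 0.97 was the largest of the 64 (edgeR adjusted p = 0.132, DESeq2 adjusted p = 2.31e-05). *Fmr1*, which encodes the translational repressor FMRP, an Argonaute partner, was at 32.6, 37.7 and 30.9 CPM in WT and 48.5, 51.4 and 44.7 CPM in KO (log2 fold change 0.52, edgeR adjusted p = 0.167, DESeq2 adjusted p = 0.00708). *Cnot1*, the scaffold of CCR4-NOT, had overlapping groups and a log2 fold change of -0.35 (edgeR adjusted p = 0.696). It was -0.18 without KO replicate 1 and -0.61 without KO replicate 3, where the unadjusted edgeR p was 0.00649.

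*Ddx6*, the helicase that CCR4-NOT recruits, was at 130, 157 and 151 CPM in WT and 101, 121 and 115 CPM in KO, wholly below WT, and was called by neither tool (log2 fold change -0.38, edgeR adjusted p = 0.209, DESeq2 adjusted p = 0.0929). Downstream, the decapping enzyme gene *Dcp2* and the exonuclease gene *Xrn1* had log2 fold changes of -0.24 and -0.19 with overlapping groups (edgeR adjusted p = 0.755 and 0.841). *Cnot6*, *Fmr1* and *Khsrp*, the genes called higher by DESeq2, each held a GC-rich run of this kind (82.0%, 79.5% and 86.0%). Such a run occurred in 20.2% of tested genes with a transcript. With GC offsets the log2 fold changes of *Cnot6*, *Fmr1* and *Khsrp* came to 0.65, 0.27 and 0.53 (edgeR unadjusted p = 0.0012, 0.0406 and 0.0375). The called-lower *Hsp90aa1* and *Ddx5* held no such run. Genes not called also held one, such as *Lsm14a* (80.5%, log2 fold change 0.38), *Tut4* (82.5%, 0.001) and *Tnrc6c* (85.5%, -0.45). The part of GC content in these calls was not tested. Seed matches were present in 15 of the 64, 23.4% against 20.3% of tested genes with a 3′UTR, again without matching for 3′UTR length. Of these 15, 6 were higher and 9 lower in KO (median -0.07 on the log2 scale). *Cnot6* held 2 matches and *Fmr1* 1, *Dcp2* held 5 and *Tnrc6c* 1, and *Khsrp* held none.

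Of 11 genes of microRNA turnover, 4 were higher and 7 lower, with 0 and 1 at an unadjusted edgeR p under 0.05 (median -0.03). *Lin28a* and *Lin28b*, which block let-7 maturation, had log2 fold changes of -0.35 and 0.19, and the uridylyl transferase genes *Tut4* and *Tut7* had 0.00 and -0.09, all with overlapping groups (edgeR adjusted p = 0.622 to 0.999). *Trim71*, a known target of let-7 that encodes an RNA-binding ubiquitin ligase, was at 7.02, 6.87 and 10.4 CPM in WT and 5.59, 6.04 and 4.52 CPM in KO. It held a seed match, and KO was wholly below WT (log2 fold change -0.59, edgeR unadjusted p = 0.0447, adjusted p = 0.459). It holds a run of 84.0% GC, and with GC offsets the log2 fold change was -0.98 (edgeR unadjusted p = 0.00486). Without WT replicate 3 and without offsets it was -0.33 (edgeR unadjusted p = 0.209).

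**Figure D5:**
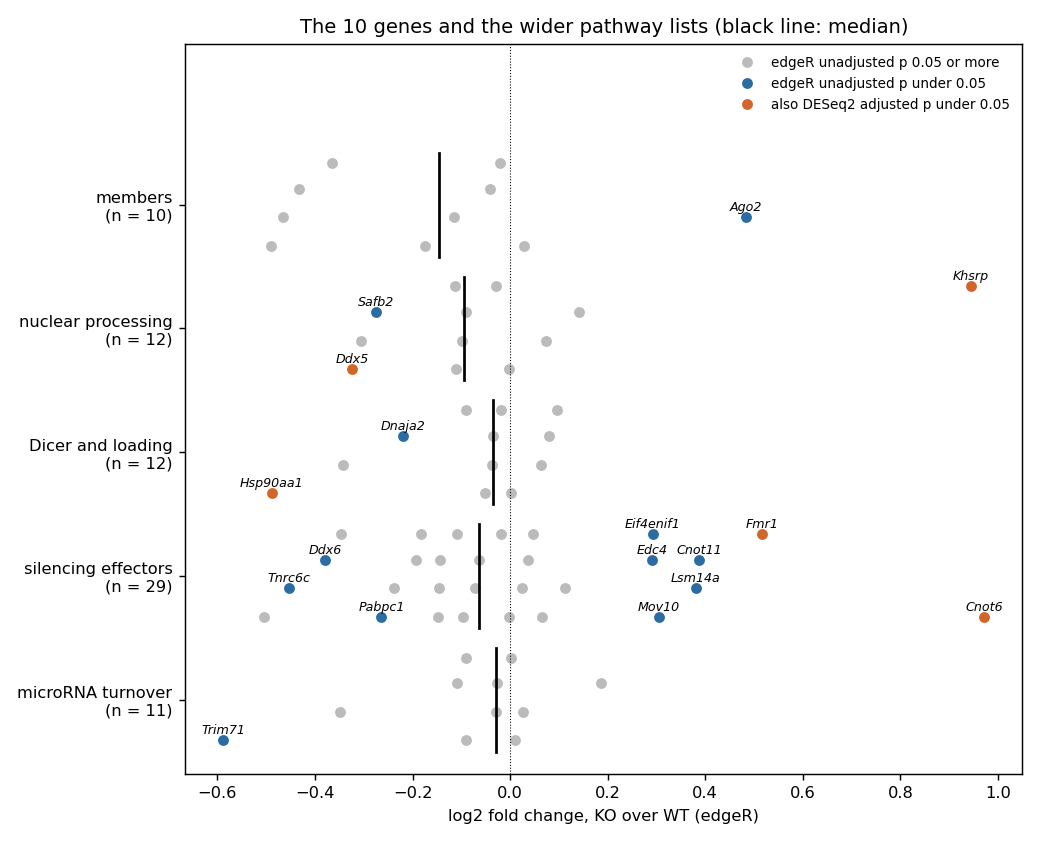
Log2 fold change of KO over WT by edgeR (horizontal axis) for the 10 genes (members) and the 4 wider lists, 1 point a gene, with names for genes at an unadjusted edgeR p under 0.05 and a black line at each list's median. The medians lie between -0.15 and -0.03, the genes called by DESeq2 (orange) are *Cnot6*, *Khsrp* and *Fmr1* to the right and *Hsp90aa1* and *Ddx5* to the left, and vertical position within a list has no meaning.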

How the data were processed

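Libraries of sorted E10.5 cells were made with SMART-seq v4 and Nextera XT, which do not mark strand, and read as pairs of 150 bp. The authors aligned the reads to GRCm39 with STAR, counted reads per gene and deposited whole-number counts without normalization; DESeq2 is the testing tool in the submitters' processing notes. The annotation and the handling of reads shared by overlapping or near-identical genes are not given in the sources used here, so values of such genes are uncertain.

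From the deposited counts, genes passing filterByExpr were fitted in edgeR 4.0.16 (R 4.3.3; TMM scaling; genotype alone; default glmQLFit and glmQLFTest), with Benjamini-Hochberg adjustment over all of them. Intervals use the t quantile at the fit's degrees of freedom (4 residual, 3.26 prior). DESeq2 1.42.0 was the alternative tool, and DESeq2 left some genes without an adjusted p. Composition values were compared by exact permutation in SciPy 1.17.1. Lengths, 3′UTRs and GC content came from GENCODE M21 (GRCm38), so levels per kb refer to its longest coding transcript. Symbols were found for 94.0% of identifiers. The fits were tested on simulated data.

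The 10 genes, the wider lists and the genes most like *Ago2* follow rules chosen with earlier results of these data known. Named beside the 10 genes are 15 partners, the deleted cluster, any listed gene called by edgeR or DESeq2, and the 3 genes most correlated with the member of smallest p. *Meg3*, *H19* and those genes labeled in the plot of the wider lists that fall under none of these rules were named after their values were seen. The 16 alternatives were other tools, scalings, filters, covariates and left-out libraries.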

Additional observations from a re-analysis of the deposited data

How the results depend on the processing

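No alternative called any of the 10 genes at an adjusted p under 0.05. The number of genes called was 699 by DESeq2, 264 with no filter on low counts and 0 to 217 with 1 library left out (217 without WT replicate 2), and the number among the wider lists, host genes included, was 7 (5 of the 64 and the host genes *Rian* and *Huwe1*), 1 (*Cnot6*) and 0 to 1 (*Cnot6*, without WT replicate 2). At an unadjusted p under 0.05 the count among the 10 was 2 (*Ago2* and *Tnrc6a*) with the first digit of the library name as a covariate, 1 with GC offsets (*Dicer1*, no longer *Ago2*), 0 with WT replicate 3 and KO replicate 1 both left out, and 0 to 3 with 1 library left out (0 without WT replicate 1, WT replicate 3 or KO replicate 1, *Ago1* without KO replicate 2, and *Ago2*, *Xpo5* and *Tnrc6a* without KO replicate 3). The cause of these shifts was not tested. Of 496 log2 fold changes of 31 named genes under alternatives, 461 kept their direction and side of the threshold, 9 came to pass it and 26 changed sign.

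Same-numbered WT and KO libraries deviated from their genotype means with correlations of -0.21, 0.25 and 0.08, so the numbers were not taken to pair them. WT replicate 2 and KO replicate 1 share the digits of their library names, and their deviations correlated at -0.13. What the names mark is not given in the sources used here, so another pairing remains possible. With the replicate number as a block, 2 of the 10 were at an unadjusted p under 0.05 (*Ago2* and *Tnrc6a*), and 0 were with the block and GC offsets together. *Tut4* came to -0.0061 with the block and -0.34 with block and GC offsets, where *Drosha* was at 0.0159 and *Larp7* at 0.0505. With GC offsets alone *Tut4* was at -0.33, *Drosha* at 0.0174 and *Larp7* at 0.0409, and with the covariate *Tut4* was at -0.0245. With WT replicate 3 and KO replicate 1 left out, *Drosha* was at 0.06, *Tarbp2* at 0.0718, *Tnrc6b* at 0.0185, *Tut7* at 0.13 and the difference in the *Drosha* to *Dgcr8* log2 ratio at 0.0368.

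With 1 library left out, log2 fold changes ranged from -0.0858 to 0.0751 for *Drosha*, -0.12 to 0.21 for *Dgcr8*, -0.17 to 0.0398 for *Dicer1*, -0.0641 to 0.0298 for *Tarbp2*, -0.87 to 0.50 for *Ago4*, -0.0311 to 0.36 for *Lin28b*, -0.074 to 0.0839 for *Tut4*, -0.17 to 0.0607 for *Tut7* and -0.13 to 0.11 for *Larp7*, and the difference in the *Drosha* to *Dgcr8* log2 ratio from -0.13 to 0.0654. Values that kept their sign but moved by over 1.5 times were those of *Ago1* (-0.73 to -0.33), *Ago3* (-0.50 to -0.26), *Xpo5* (-0.26 to -0.09), *Cnot1* (-0.61 to -0.18), *Trim71* (-0.68 to -0.33), *Ddx17* (-0.48 to -0.14), *Lin28a* (-0.50 to -0.22), *Dcp2* (-0.34 to -0.13), *Xrn1* (-0.40 to -0.0585) and *Prkra* (-0.10 to -0.019), among others. *Ago4* had as few as 25 counts in a library, which counting error alone makes imprecise.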

Other observations

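Genes whose loci hold microRNAs (host genes) form a further list, of which 23 of 24 were matched and 19 tested. Whether each microRNA lies on the strand of its host was not checked. In KO 6 were higher and 13 lower (median log2 fold change -0.05), with 0 and 4 at an unadjusted edgeR p under 0.05 (lower: 21.1% against 3.97% of all tested genes), 0 called by edgeR after adjustment, and 0 and 2 called by DESeq2 (lower: 11.1% against 0.648%). KO lay wholly below WT for 4 of the 19 (21.1% against 7.99%). *Meg3* and *H19* are named because they complete these 4, a choice made after their values were seen. *Rian* and *Meg3*, noncoding RNAs of the imprinted *Dlk1*-*Dio3* region, were both wholly lower in KO. *Rian* was at 46.0, 59.6 and 42.5 CPM in WT and 31.3, 31.7 and 29.2 CPM in KO (log2 fold change -0.68, edgeR adjusted p = 0.147, DESeq2 adjusted p = 0.00359), and *Meg3* at 157, 169 and 163 CPM in WT and 110, 110 and 143 CPM in KO (-0.43, edgeR adjusted p = 0.206, DESeq2 adjusted p = 0.0596). *H19*, the imprinted host of miR-675, was at 167, 134 and 168 CPM in WT and 132, 134 and 100.2 CPM in KO (-0.36, edgeR adjusted p = 0.428).

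*Huwe1*, a ubiquitin ligase gene that hosts miR-98 and let-7f-2, was at 117, 116 and 132 CPM in WT and 78.8, 91.2 and 98.9 CPM in KO (-0.44, edgeR adjusted p = 0.165, DESeq2 adjusted p = 0.0331). *Larp7*, whose gene holds the *mir-302* cluster, had overlapping groups, at 75.2, 52.7 and 61.9 CPM in WT and 64.3, 57.7 and 63.6 CPM in KO (-0.03, edgeR adjusted p = 0.970). A host transcript does not measure the mature microRNA.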
